A study of Mus musculus with 8 samples.

Results

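The 10 genes described here are the Toll-like receptor genes Tlr1 to Tlr9 and Myd88, taken by gene name from the deposited table of read counts, which lists 54532 genes. All 10 had counts and passed the filter of a mean of at least 10 counts over the 8 libraries. The libraries were RNAseq of GFP+ primary cells sorted from female mice aged 8 months. They came from subcutaneous adipose tissue (SAT) of mice on a high fat diet (HFD) or chow, and from visceral adipose tissue (VAT) and gastrocnemius muscle of mice on chow. Each of these 4 settings had 1 library of Tie2e-cre; TERT+/+; mTmG cells (WT) and 1 of Tie2e-cre; TERTfl/fl; mTmG cells (KO). Every group therefore carried the endothelial Tie2e-cre driver, which deletes Tert only where the floxed allele is present, and the mTmG reporter, in which recombined cells switch from membrane Tomato to membrane GFP. HFD feeding had begun in young mice and lasted until the cells were taken. Within a setting no library was repeated, and whether the cells of several mice were pooled is not given in the sources used here. The p-values below rest on the spread between these 8 libraries. Tests of tissue and diet use the WT and KO library of a setting as its replicates. They take the genotype difference to be equal in every setting.

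Toll-like receptors are membrane proteins that bind molecules of microbes or of damaged cells. TLR1, TLR2, TLR4, TLR5 and TLR6 act mainly at the cell surface, where TLR2 pairs with TLR1 or TLR6 to bind lipopeptides, TLR4 binds lipopolysaccharide and TLR5 binds flagellin. TLR3, TLR7, TLR8 and TLR9 sit in endosomes and bind nucleic acids. MyD88 is the adaptor that all of them but TLR3 use to activate NF-kB, and endothelial cells, macrophages, neutrophils and B cells each express some of these genes.

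Library totals were between 6214269 and 18855772 counts, lowest in the WT library of SAT on HFD, and between 16034 and 24688 genes had a count. Levels are given as CPM, the read count per 1000000 counts of the TMM-scaled library, and the floor of 3 counts lay between 0.184 and 0.434 CPM. The WT libraries of SAT on HFD, chow-fed SAT and muscle held 114, 70 and 24 counts of Tert, and their KO partners 0, 11 and 7. In VAT they were 3 in the library labelled WT and 9 in the library labelled KO, which did not follow the labels. The first is at the floor of 3 counts, and the KO library was deeper (14344720 against 9389345 counts in all). Counts this low cannot show whether the VAT labels are right. The endothelial markers Pecam1 and Cdh5 were at 145 to 553 CPM and at 13.6 to 371 CPM. The list of 15 endothelial markers that holds them summed to 481 to 954 CPM in SAT, 2384 to 3132 CPM in VAT and 2751 to 3427 CPM in muscle. Leukocyte markers were present in every library, and in each tissue some of their lists summed higher than the endothelial list. The summed level of 14 macrophage markers was 425 to 2208 CPM in SAT, 14586 to 14807 CPM in VAT and 5351 to 5565 CPM in muscle. In muscle 86.6% and 92.9% of it was Lyz2, which neutrophils also express, and the other 13 genes summed to 206 to 936 CPM in SAT, 9296 to 9445 CPM in VAT and 378 to 748 CPM in muscle. That of 12 neutrophil markers was 67.1 to 308 CPM in SAT, 397 to 509 CPM in VAT and 28466 to 32970 CPM in muscle. B cell markers (8 genes) summed to 1539 to 2511 CPM in SAT and 175 to 177 CPM in VAT. T cell markers (10 genes) summed to 1853 to 3732 CPM in SAT and 393 to 487 CPM in VAT. RNA of cells other than endothelium was thus measured too, and in such bulk libraries fewer cells of a type and less RNA per cell cannot be told apart.

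**Figure D1:**
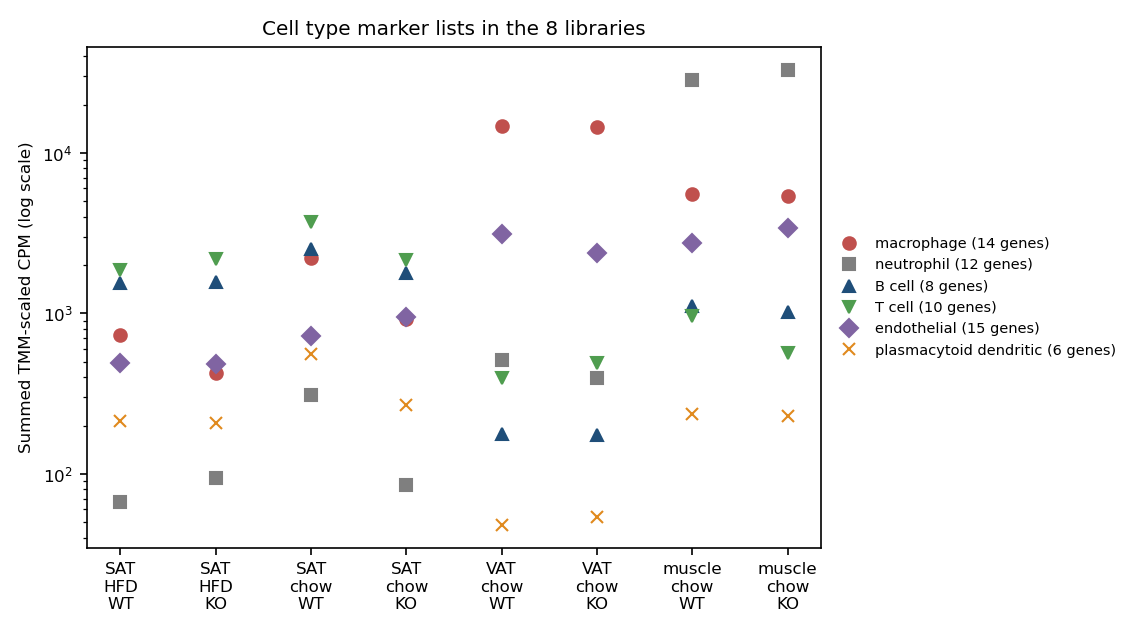
Summed TMM-scaled CPM, on a log scale, of 6 marker lists in the 8 libraries, 1 symbol a list. Macrophage markers were highest in VAT (14807 and 14586 CPM), neutrophil markers in muscle (28466 and 32970 CPM), and B cell and T cell markers lay above the macrophage markers in all 4 SAT libraries.

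On GRCm38, Tlr1 (chr5:64924679-64933563) and Tlr6 (chr5:64952031-64960097) lie next to each other on the minus strand, as do Tlr8 (chrX:167242696-167264329) and Tlr7 (chrX:167304929-167330558). Tlr2 lies at chr3:83836272-83841767, Tlr3 at chr8:45395665-45411080, Tlr4 at chr4:66827584-66930284, Tlr5 at chr1:182954788-182976044, Tlr9 at chr9:106222598-106226883 and Myd88 at chr9:119335934-119341411. The GENCODE M21 annotation gives all 10 the same coordinates as the deposited table. Of the 2576 exon bases of Myd88, 290 (11.3%) overlap exons of Acaa1a on the other strand, and 381 of the 5207 exon bases of Tlr3 (7.32%) overlap the antisense gene Gm45542. Whether reads were counted by strand is not given in the sources used here, so reads in these stretches cannot be assigned.

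The coding sequences of Tlr1 and Tlr6 are near copies over part of their length, which matters for how their counts can be read. Of the 2339 windows of 50 bases in the Tlr1 coding sequence (2388 bases, transcript Tlr1-202), 454 (19.4%) occur unchanged in that of Tlr6 (2421 bases, Tlr6-201). The longest unbroken match is 229 bases, at chr5:64925537-64925765 in Tlr1 and chr5:64953828-64954056 in Tlr6, both in coding exons on the minus strand. It is printed here because a read that lies wholly within it, taken alone, matches both genes equally.

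Tlr1 and Tlr6, shared coding run: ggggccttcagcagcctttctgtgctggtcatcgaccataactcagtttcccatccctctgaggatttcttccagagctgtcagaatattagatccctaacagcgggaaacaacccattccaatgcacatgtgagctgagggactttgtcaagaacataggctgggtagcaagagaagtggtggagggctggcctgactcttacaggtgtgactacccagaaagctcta

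Tlr7 and Tlr8, and likewise Tlr1 and Tlr2, share no window of 50 bases, and their longest match is 13 bases. The values of Tlr1 and Tlr6 are thus less certain than the others, by an amount that depends on how the authors' counting treated shared reads.

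RefSeq promoters (GRCm38.p6, 250 bases before to 50 bases after a transcript start) were matched for 8 of the 10 members, with 10 starts. The letters GAGGAAG, a core of sites for the myeloid and B cell factor PU.1, occurred on either strand in 2 of these 10 promoters, against 13.6% of 32851 promoters. They were a promoter of Tlr1 and that of Tlr9. The interferon regulatory factor form, GAAA followed after any 2 bases by GAAA, occurred in a promoter of Tlr6 and in that of Myd88, against 3.44% of all. A kappa B form, GGG followed after any 2 bases by TTTCC, occurred in that of Tlr3, against 1.63%. A match is a description and not a binding site. The 250 bases before the start are printed for 3 members, namely Tlr1, higher in SAT than in VAT, and 2 endosomal receptors with their highest mean in VAT, Tlr8, whose settings did not overlap, and Tlr9, whose VAT and chow SAT levels did. GAGGAAG is in capitals. It begins 23 bases before the start in Tlr1 and 112 bases before it in Tlr9, and is absent from the Tlr8 stretch. The other Tlr1 promoter (chr5:64932650-64932949) does not hold it and is not printed. A further match in Tlr9, on the other strand, lies 12 bases after the start and so outside the printed stretch.

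Tlr1 promoter, chr5:64933559-64933808, minus strand: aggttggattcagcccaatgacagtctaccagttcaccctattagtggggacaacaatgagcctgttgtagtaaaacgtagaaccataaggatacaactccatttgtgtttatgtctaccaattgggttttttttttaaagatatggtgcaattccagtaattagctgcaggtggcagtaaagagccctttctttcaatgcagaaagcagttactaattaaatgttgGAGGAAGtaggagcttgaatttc

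Tlr8 promoter, chrX:167264330-167264579, minus strand: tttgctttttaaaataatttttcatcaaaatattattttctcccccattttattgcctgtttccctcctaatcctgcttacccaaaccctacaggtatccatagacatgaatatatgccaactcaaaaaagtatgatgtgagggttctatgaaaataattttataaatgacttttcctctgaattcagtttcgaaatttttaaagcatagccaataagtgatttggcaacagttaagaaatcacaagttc

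Tlr9 promoter, chr9:106222348-106222597, plus strand: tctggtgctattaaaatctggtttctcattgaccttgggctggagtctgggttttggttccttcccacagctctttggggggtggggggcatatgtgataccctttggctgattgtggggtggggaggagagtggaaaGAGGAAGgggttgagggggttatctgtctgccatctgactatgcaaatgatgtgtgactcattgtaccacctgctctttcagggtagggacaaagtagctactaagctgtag

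The receptor gene with the highest RNA level differed by tissue. Per kb of exon, Tlr1 had the highest level of the 9 receptor genes in all 4 SAT libraries, with 36.1% to 50.8% of their summed level. Tlr2 led in VAT, with 49.2% in WT and 52.0% in KO, and in muscle, with 68.0% and 62.4%. The summed level of the 9 genes was 39.6 and 48.3 CPM per kb (WT and KO) in SAT on HFD, 68.0 and 48.4 in chow SAT, 228 and 207 in VAT, and 116 and 74.2 in muscle. VAT thus lay above every other library. The 4 endosomal receptor genes made up 24.3% to 43.8% of the sum in SAT, 33.7% to 39.6% in VAT and 15.1% to 15.2% in muscle, the lowest share. Myd88 ranked first of the 10 genes per kb in SAT and behind only Tlr2 in VAT and muscle.

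**Figure D2:**
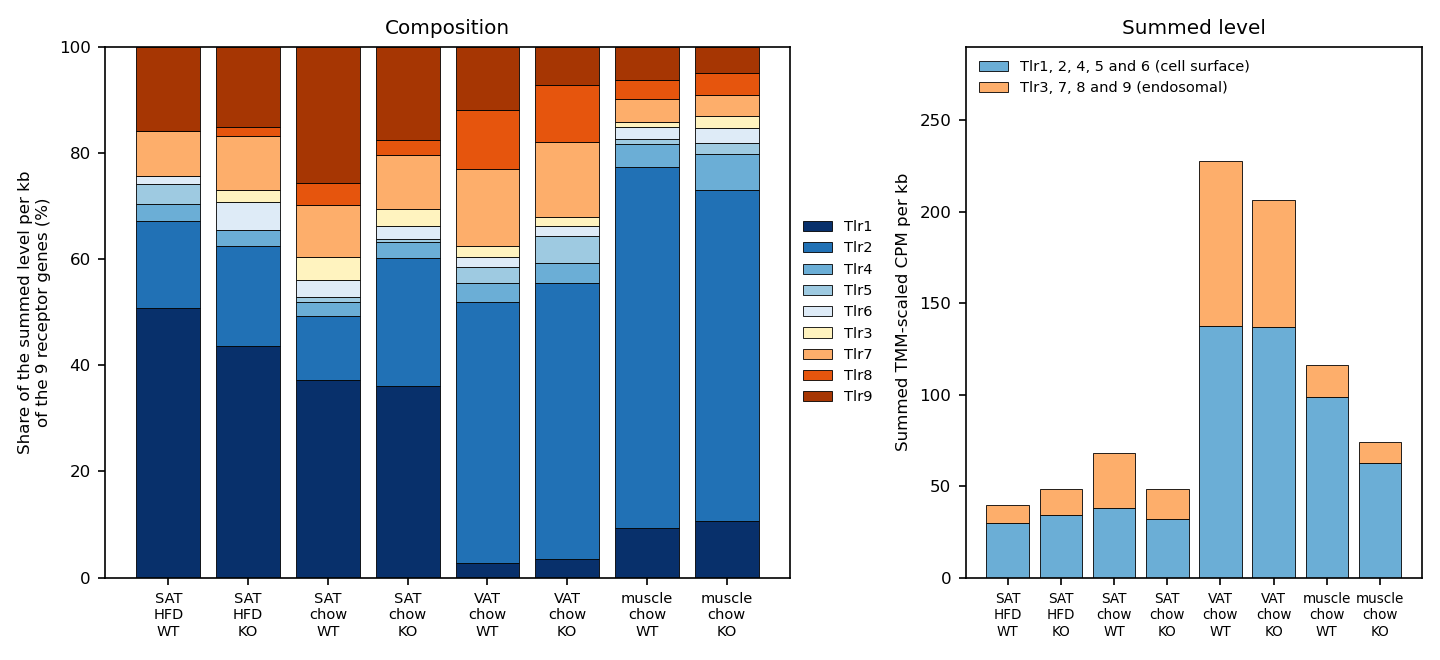
Left, share (%) of each receptor gene in the summed level per kb of Tlr1 to Tlr9 in each library. Right, that sum in TMM-scaled CPM per kb, split into cell surface and endosomal receptors. Tlr1 takes 36.1% to 50.8% in SAT and Tlr2 49.2% to 68.0% in VAT and muscle, and the sum is 206.6 to 228 in VAT against 39.6 to 116 elsewhere.

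Both VAT libraries lay above the other 6 for 8 of the 10 members (Tlr2 to Tlr8 and Myd88), a pattern found in 14.5% of the 16971 genes that averaged 10 or more counts. Tlr1 was the opposite, with both VAT libraries below the other 6 (12.2% of genes). Tlr2, Tlr4 and Tlr8 had all 4 SAT libraries below the other 4 (10.2% of genes), and Tlr1 had all 4 above (7.21%). In the test of any difference among the 4 settings (edgeR quasi-likelihood, Benjamini-Hochberg adjusted over all 16971 genes), 5 of 10 members passed the threshold of 0.05, against 7.93% of all genes. They were Tlr2 (adjusted p = 0.00301), Tlr7 (0.00510), Tlr4 (0.0111), Tlr8 (0.0292) and Tlr1 (0.0381). Tlr9 (0.0588), Tlr5 (0.170), Tlr3 (0.463), Myd88 (0.491) and Tlr6 (0.584) did not pass. With either VAT library left out, only Tlr2 passed, and over the 8 such fits between 1 and 7 members did. A setting left with 1 library is there assumed to vary like the others.

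**Figure D3:**
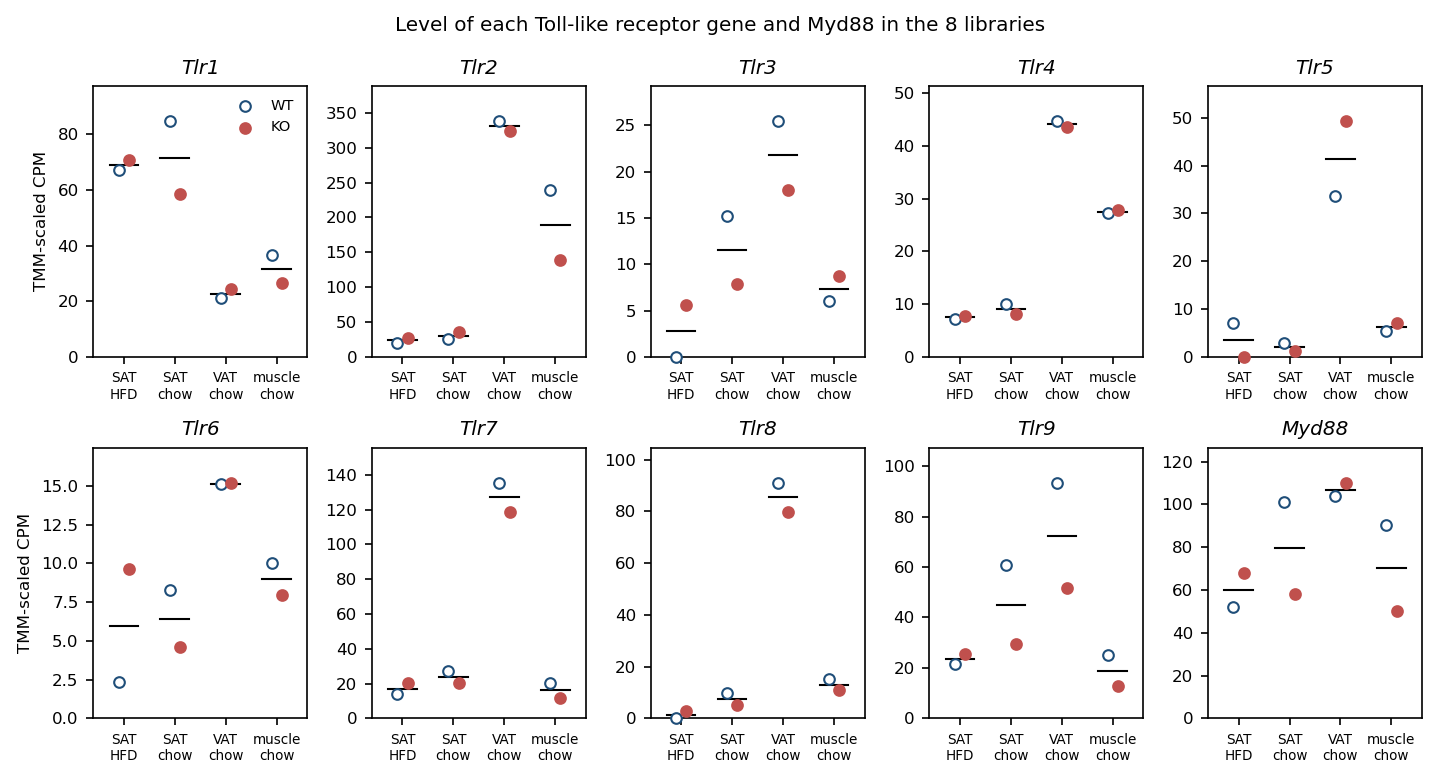
TMM-scaled CPM (linear scale from 0, a separate scale for each gene) of the 10 genes in the 4 settings. Open circles are WT, filled circles KO and lines the mean of both. Tlr1 is highest in SAT, the other receptor genes and Myd88 have their highest mean in VAT, and WT and KO of Tlr4 lie close together in every setting.

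Tlr2, the common partner of the lipopeptide receptors, had 19.5 CPM (WT) and 27.4 CPM (KO) for HFD SAT, 24.9 and 35.2 for chow SAT, 338 and 324 in VAT, and 239 and 140 in muscle. The 4 SAT libraries sat well below the other 4, and the settings did not overlap except for the 2 diets in SAT. VAT exceeded SAT on chow by 3.46 on the log2 scale (SE 0.41, edgeR adjusted p = 0.00695), which is 11.03-fold, and muscle exceeded it by 2.66 (SE 0.40, adjusted p = 0.0287), or 6.32-fold. Muscle and VAT differed by -0.80 (SE 0.38, adjusted p = 0.443). The difference between VAT and SAT passed in each of the 8 fits without 1 library, whereas that between muscle and SAT did not pass without the WT library of muscle (2.08, adjusted p = 0.169).

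Tlr1 had 67.2 and 70.7 CPM in SAT on HFD, 84.7 and 58.4 in chow SAT, 21.1 and 24.3 in VAT, and 36.8 and 26.6 in muscle. No SAT library overlapped VAT or muscle, and the 2 diets overlapped each other. Its level in VAT was below that in SAT on chow (log2 difference -1.63, SE 0.34, adjusted p = 0.0364), or 3.10-fold. This call was kept only without the KO library of SAT on chow, and the adjusted p without any other library ran from 0.0534 to 0.456. In muscle the difference to SAT was -1.17 (SE 0.33, adjusted p = 0.173), which passed without the KO library of SAT on chow (-1.39, adjusted p = 0.0409). Tlr6, the other partner of Tlr2, lay at 2.31 and 9.65 CPM in SAT on HFD, 8.29 and 4.59 in chow SAT, 15.1 and 15.2 in VAT and 10.004 and 7.96 in muscle. WT and KO of SAT on HFD, at 16 and 125 counts, spanned most of that range, and no tissue difference of Tlr6 passed.

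Tlr4, the lipopolysaccharide receptor, had 7.23 and 7.80 CPM in SAT on HFD, 9.96 and 8.12 in chow SAT, 44.6 and 43.5 in VAT, and 27.2 and 27.9 in muscle. The 4 settings were in the order VAT, muscle, SAT on chow and SAT on HFD with no overlap between neighbours. VAT exceeded SAT on chow by 2.29 on the log2 scale (SE 0.39, adjusted p = 0.0175), or 4.88-fold. Without the WT library of VAT the adjusted p was 0.145, and without its KO library 0.105. Muscle exceeded SAT by 1.61 (SE 0.38, adjusted p = 0.1005), which did not pass here but did in DESeq2 (1.72, adjusted p = 0.00153). Tlr5, the flagellin receptor, had 7.09 and 0 CPM in SAT on HFD, 2.97 and 1.24 in chow SAT, 33.6 and 49.2 in VAT, and 5.34 and 7.15 in muscle. VAT lay far above the rest, but the difference to SAT on chow of 4.58 (SE 1.49, adjusted p = 0.134) did not pass in this fit. With all 8 libraries it passed in DESeq2 (4.78, adjusted p = 0.00316) and in edgeR without the filter on low counts (4.58, adjusted p = 1.18e-07). It also passed without the WT library of SAT on HFD (4.49, adjusted p = 0.0168) and without its KO library (4.30, adjusted p = 0.0216).

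Among the endosomal receptors, Tlr7, which binds single-stranded RNA, was at 13.7 and 20.2 CPM in SAT on HFD, 27.2 and 20.2 in chow SAT, 135 and 119 in VAT, and 20.4 and 11.9 in muscle. VAT stood apart from the other settings, which overlapped in part. The level in VAT was 2.43 higher on the log2 scale than in SAT on chow (SE 0.39, adjusted p = 0.0163), or 5.39-fold, and the level in muscle was below that in VAT (log2 difference -2.99, SE 0.40, adjusted p = 0.0127), or 7.96-fold. The first call was lost without the WT or the KO library of VAT (adjusted p = 0.0956 and 0.0805). The second was lost without the WT or KO library of VAT (0.106 and 0.0962) or of muscle (0.0659 and 0.172).

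Tlr8, also a receptor for RNA, was at 0 and 2.78 CPM in SAT on HFD, 9.90 and 5.02 in chow SAT, 91.0 and 79.9 in VAT, and 15.04 and 10.8 in muscle. The settings did not overlap and VAT was again the highest. The difference between VAT and SAT on chow was 3.51 on the log2 scale (SE 0.94, adjusted p = 0.0796), and that between muscle and VAT -2.72 (SE 0.91, adjusted p = 0.225). Neither passed in this fit. With all 8 libraries both passed in DESeq2 (adjusted p = 0.000861 and 0.0305) and in edgeR without the filter on low counts (2.82e-09 and 6.09e-06). Without the WT or the KO library of SAT on HFD, both did (adjusted p = 0.0105 and 0.0129 for VAT over SAT, 0.0177 and 0.0213 for muscle over VAT).

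Tlr9, the receptor for unmethylated DNA, was at 21.7 and 25.4 CPM in SAT on HFD, 60.7 and 29.4 in chow SAT, 93.4 and 51.6 in VAT, and 25.1 and 12.7 in muscle. Here VAT and SAT on chow overlapped, and the spread within each chow setting followed genotype, WT being higher each time. Muscle lay below VAT (log2 difference -1.95, SE 0.41, adjusted p = 0.0567), which did not pass, although it did without any 1 of the 4 SAT libraries (0.0213 to 0.0356), in DESeq2 (0.000379) and without the filter (0.000616). Tlr3, the receptor for double-stranded RNA, had 0 and 5.64 CPM in SAT on HFD, 15.2 and 7.81 in chow SAT, 25.4 and 18.0 in VAT, and 6.01 and 8.70 in muscle. VAT stood clear of SAT on chow, which overlapped muscle, and no tissue difference of Tlr3 passed.

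Myd88 had 51.9 and 68.1 CPM in SAT on HFD, 101 and 58.0 in chow SAT, 104 and 110 in VAT, and 90.4 and 49.96 in muscle. The libraries of highest and lowest level, VAT KO and muscle KO, were nearer to each other in ratio than those of any receptor gene, and SAT on chow and muscle overlapped. VAT over SAT on chow was 0.47 on the log2 scale (SE 0.39, interval -0.42 to 1.36, adjusted p = 0.545), so that a difference of up to 2.57-fold was within the interval.

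**Figure D4:**
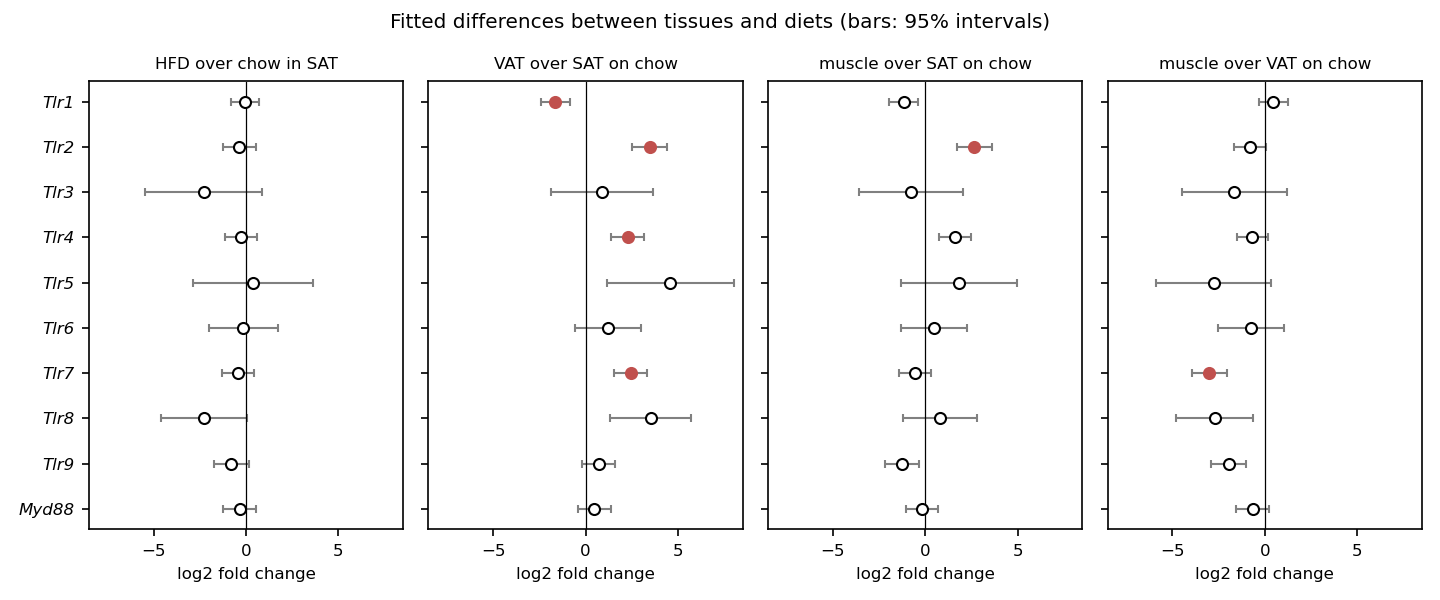
Fitted log2 fold changes of the 10 genes in 4 comparisons of tissue or diet, with 95% intervals from the edgeR fit. Red points passed the adjusted threshold (4 for VAT over SAT, 1 each for muscle over SAT and muscle over VAT, 0 for HFD over chow) and open points did not.

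In total, VAT over SAT on chow was called for 4 members, 3 higher (against 3.13% of genes) and 1 lower (1.87%). Muscle over SAT was called for 1, higher, against 1.1% of genes higher, 0.165% lower and 1.27% in all. Muscle over VAT was called for 1, lower, against 1.03% of genes lower, 0.99% higher and 2.02% in all. The markers moved as well. Of the macrophage markers, 12 of 14 were called higher in VAT than in SAT and 10 of 14 lower in muscle than in VAT. All 8 B cell markers and 8 of 10 T cell markers were called lower in VAT than in SAT, and 11 of 12 neutrophil markers higher in muscle than in SAT. Endothelial markers were called higher than in SAT for 10 of 15 in VAT and 7 of 15 in muscle. The macrophage gene Csf1r had 44.7 to 242 CPM in SAT, 1825 to 2047 in VAT and 133 to 258 in muscle. What part these cells had in the differences of the receptor genes was not tested.

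For HFD over chow in SAT, no member passed, and neither did any of the 16971 genes (0%). With edgeR 1577 genes had an unadjusted p under 0.05, and DESeq2 called 260 genes and 0 members. The median of all genes in this comparison was -0.32 on the log2 scale. Tlr9 was at -0.79 (SE 0.40, adjusted p = 0.596), with 21.7 and 25.4 CPM on HFD below 60.7 and 29.4 CPM on chow. Tlr2 (-0.35), Tlr4 (-0.26), Tlr7 (-0.44) and Myd88 (-0.34) lay close to that median and Tlr1 was at -0.03. Tlr3, Tlr5 and Tlr8 each had 1 HFD library at 0 counts, so no fold is given for them. The HFD libraries were the shallowest but for the VAT library labelled WT.

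KO and WT were compared across the 4 pairs, with tissue and diet as a block, to ask whether Tert loss went with a change of these genes. No member passed, and of 16971 genes 1 did (0.00589%), namely H2-Ea-ps, which is named here because it is the only one. It had 5496, 14205 and 2291 counts in the chow KO libraries of SAT, VAT and muscle, 0, 7 and 3 in their WT partners, and 0 in both HFD libraries. Whether this difference goes with Tert loss or with another difference between the mice was not tested. At an unadjusted p under 0.05 there were 277 genes (1.63%), and DESeq2 called 19 genes and 0 members. Among the members Tlr9 alone was under 0.05 before adjustment. Its difference was -0.67 on the log2 scale (SE 0.28, interval -1.33 to -0.02, edgeR adjusted p = 0.9996), and with 1 pair left out it lay between -0.96 and -0.55. The interval of the log2 difference was -0.73 to 0.36 for Tlr1, -0.59 to 0.66 for Tlr2, -0.65 to 0.56 for Tlr4, -0.84 to 0.41 for Tlr7 and -0.93 to 0.34 for Myd88. For these 5 a shared change of 2-fold in either direction lay outside the interval. The fit takes the change to be the same in each pair, so this does not cover changes that differ between pairs. The interval was -1.71 to 2.75 for Tlr3, -3.43 to 1.46 for Tlr5, -1.17 to 1.48 for Tlr6 and -1.45 to 1.54 for Tlr8, so changes of 2-fold either way were not excluded for these genes.

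Within the pairs the difference is given as the log2 ratio of KO to WT with a 95% interval that covers counting error only, and no p. A gene is called beyond 2-fold where the whole interval is. In SAT on HFD, 3 members were beyond 2-fold higher in KO (12.9% of 15839 genes) and 1 lower (10.9%). Tlr3 went from 0 counts in WT to 73 in KO, 12.997-fold against the floor of 3 counts with an interval from 10.3-fold upwards. Tlr8 went from 0 to 36, 6.41-fold against the floor with an interval from 4.95-fold upwards, and Tlr6 from 16 to 125, by 2.04 (1.31 to 2.91). Tlr5 went the other way, from 49 to 0, 30.6-fold lower against the floor with an interval from 23.9-fold upwards. A count of 0 was common in these libraries. Of the genes with counts within 2-fold of those of Tlr3 in KO, 16.8% were at 0 in WT, of those like Tlr8 36.0%, and of those like Tlr5 in WT 15.1% were at 0 in KO. No member was beyond 2-fold in SAT on chow (30.6% of genes were), VAT (4.5%, with 2.4% higher and 2.09% lower) or muscle (4.77%, with 2.76% higher and 2.01% lower).

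**Figure D5:**
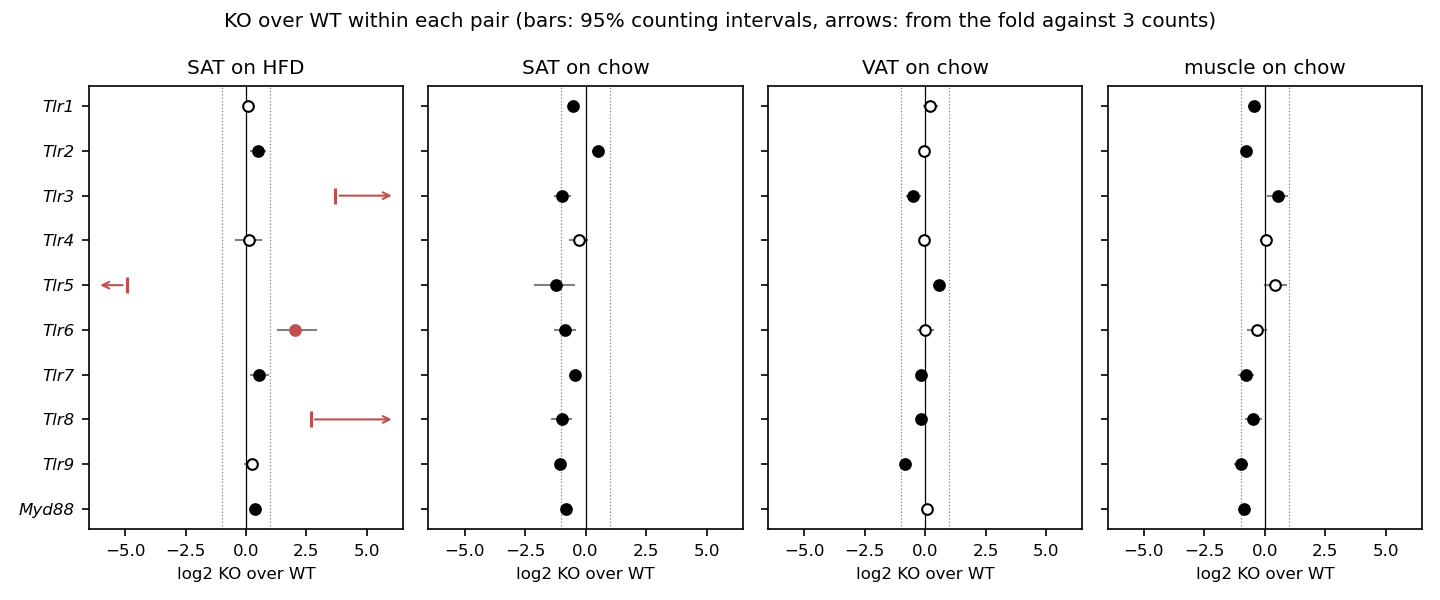
log2 ratio of KO to WT for the 10 genes in each pair, with 95% counting intervals. Filled points have intervals that exclude 0, red points and arrows are beyond 2-fold (dotted lines at 2-fold), and an arrow starts at the ratio against the floor of 3 counts where 1 library had 0 counts. In SAT on chow the intervals of 8 of 10 genes lie below 0, and in SAT on HFD those of 6 lie above it.

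Counted at any size, the direction differed from pair to pair, with intervals on opposite sides of 0 in different pairs for 7 members and for 57.4% of all genes. In SAT on HFD the interval lay above 0 for 6 members (39.4% of genes) and below it for 1 (33.2%). In SAT on chow it lay above 0 for Tlr2 alone (41.1%) and below 0 for 8 (40.2%), the exception being Tlr4, whose interval spanned 0. In VAT it lay above 0 for 1 (26.6%) and below for 4 (24.7%), and in muscle above for 1 (27.1%) and below for 6 (28.9%). The median over the 10 members was 0.44 with HFD, and -0.82, -0.05 and -0.47 in the chow pairs of SAT, VAT and muscle, beside medians over all genes of 0.06, 0.00, 0.01 and 0.00. Scaled by library totals instead of TMM, the all-gene median moved to 0.12, 0.23, 0.00 and 0.16. In SAT on chow the summed macrophage markers were 2208 CPM in WT and 920.0 CPM in KO, B cell markers 2511 and 1788 CPM and plasmacytoid dendritic cell markers 559 and 270.0 CPM, so these too were lower in the KO library of that pair. Stromal markers (11 genes) were higher there, at 820 CPM in WT and 3693 CPM in KO, as were mural markers (8 genes) at 66.9 and 220 CPM. Conventional dendritic cell markers (8 genes) summed to 593 and 1497 CPM, of which Ccr7 alone was 227 and 1281 CPM. The median log2 ratio of that list was -0.73, with 1 gene beyond 2-fold higher and 1 lower. Stromal and mural markers were also higher in the KO libraries of VAT (1296 and 2569 CPM, 169 and 696 CPM) and muscle (778 and 1494 CPM, 174 and 367 CPM). In muscle the macrophage markers other than Lyz2 were 748 CPM in WT and 378 CPM in KO, with a median log2 ratio of -0.80 over the list and 4 of 14 beyond 2-fold lower, and T cell markers 957 and 565 CPM, and in VAT macrophage markers were 14807 and 14586 CPM. In SAT on HFD, where 6 members had intervals above 0, macrophage markers were 731 CPM in WT and 425 CPM in KO. That list had a median log2 ratio of -0.78 there, with 2 genes beyond 2-fold lower. B cell markers were 1539 and 1561 CPM in that pair, and stromal markers 2370 and 2353 CPM. The part of these cells in the members' differences was not tested.

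Tlr7, Tlr8 and Tlr9, 3 of the 4 endosomal receptor genes, had intervals below 0 in all 3 chow pairs, a pattern singled out after the values were seen and held by 2.03% of genes. Tlr9 was lower in KO by a like amount each time, at -1.04 (-1.21 to -0.89) in SAT, -0.86 (-1.002 to -0.71) in VAT and -0.98 (-1.24 to -0.72) in muscle, and was 0.23 (-0.05 to 0.52) in SAT on HFD. Tlr7 was at -0.43 (-0.65 to -0.22), -0.19 (-0.30 to -0.08) and -0.77 (-1.05 to -0.50), and at 0.55 (0.21 to 0.91) in SAT on HFD. Tlr8 was at -0.97 (-1.38 to -0.58), -0.19 (-0.32 to -0.06) and -0.47 (-0.78 to -0.17). With library totals the pattern held for Tlr8 and Tlr9 but not Tlr7. In VAT the direction rests on libraries whose Tert counts, 3 in WT and 9 in KO, did not follow their labels but are too low to judge them. H2-Ea-ps ran the same way there as in the other chow pairs. It was picked by a test under these same labels, so it cannot show whether they are right. Without the VAT pair, intervals lay below 0 in both remaining chow pairs for 5 members (Tlr1, Tlr7, Tlr8, Tlr9 and Myd88) and for 11.6% of genes.

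Myd88 was lower in KO in SAT on chow (-0.80, -0.92 to -0.68) and muscle (-0.86, -0.99 to -0.72), not distinguishable in VAT (0.09, -0.03 to 0.20), and higher in SAT on HFD (0.39, 0.21 to 0.57). Tlr2 was higher in KO on either diet in SAT, by 0.49 (0.20 to 0.79) with HFD and 0.50 (0.31 to 0.69) with chow, and lower in muscle (-0.77, -0.85 to -0.69), and its VAT interval spanned 0. Tlr1 was lower in SAT on chow (-0.54) and muscle (-0.47). Tlr4 was the only member whose interval spanned 0 in all 4 pairs.

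The rest of the pathway was described from lists chosen with earlier results known. Among 3 other mouse receptors, Tlr11 had 0 to 15.97 CPM and Tlr12 2.19 to 22.96 CPM, both highest in WT of SAT on chow. Tlr13, an endosomal receptor for bacterial ribosomal RNA, had 2.9 to 15.3 CPM in SAT, 66.2 and 68.8 CPM in VAT and 70.6 and 35.7 CPM in muscle. It was called higher in VAT than SAT (2.48, SE 0.43, edgeR adjusted p = 0.0204). Within the pair of SAT on chow, 2 of these 3 genes were beyond 2-fold lower in KO, against 11.5% of genes. Tlr11 went from 258 counts in WT to 28 in KO there, and Tlr12 from 371 to 95. In SAT on HFD 1 of the 3 was beyond 2-fold higher in KO, against 12.9% of genes, and in VAT and muscle 0 were beyond 2-fold. Of the 6 co-receptor genes, 2 were called higher in VAT than SAT. Cd14, which hands lipopolysaccharide to TLR4, went from 29.0 and 115 CPM to 1179 and 1561 CPM, and Cd36, a scavenger receptor that works with TLR2, from 147 and 209 CPM to 1518 and 2065 CPM. Ly96, the MD-2 subunit of the TLR4 complex, had 0 to 5.32 CPM in SAT, 16.2 and 15.6 CPM in VAT and 1.47 and 2.87 CPM in muscle. It did not pass in the test among the 4 settings (edgeR adjusted p = 0.342). Of 10 chaperone and trafficking genes, 3 were called higher in VAT, the lysosomal proteases Lgmn, Ctsb and Ctsl that cut endosomal receptors. Unc93b1, which carries those receptors to endosomes, had 168 to 320 CPM in SAT and 588 and 636 CPM in VAT (1.24, SE 0.34, adjusted p = 0.0801) and did not pass. None of the 5 other TIR adaptors passed for VAT over SAT. Ticam2, which passed in the test among the 4 settings (adjusted p = 0.0310), lay between 0 and 5.14 CPM in SAT and at 35.5 and 31.1 CPM in VAT. In the remaining lists 1 of 19 kinase and ubiquitin ligase genes (Peli2), 1 of 8 transcription factors (Atf3), 1 of 10 negative regulators and 1 of 5 other MyD88-coupled receptors (Il1rl1 in both) were called higher in VAT, and no gene of the 8 lists lower, beside 3.13% of all genes called higher and 1.87% lower. In muscle over SAT the only gene called in these lists was Lbp, the carrier of lipopolysaccharide, at 81.7 and 85.3 CPM against 10.3 and 11.04 CPM in SAT on chow, beside 1.27% of all genes called. In muscle over VAT, where 2.02% of genes were called, Lbp was called higher (2.16, edgeR adjusted p = 0.0499), and Cd180 (-1.67, 0.0485), Lgmn (-2.80, 0.0195), Ctsb (-2.55, 0.0237) and Il1rl1 (-4.02, 0.0120) lower. For KO over WT across the pairs 0 genes of the 8 lists passed in edgeR, and 1, Tlr13, was under 0.05 before adjustment (-0.72, SE 0.30, adjusted p = 0.9996).

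The genes most like each member were found by Pearson's r of log CPM over the 8 libraries, among 16971 genes, as a description without a p. The points share libraries, tissues and depth. Tlr1 was most like Gtf2i (0.992), Lck (0.991) and Trbc1 (0.988), the last pair being a T cell kinase and a T cell receptor constant chain. Tlr7 was most like Clec10a, C1qc and Dpp7 (0.979 to 0.984) and Tlr8 most like Cass4, Adap2 and Lrfn1 (0.992). Tlr2 went with Emilin2, Gm11699 and Fez2 (0.983 to 0.985), and Tlr4 with Tifa, B4galt6 and Adam15 (0.991 to 0.993). For Tlr9 they were Cyp4v3 (0.981), Kptn (0.950) and 5430427O19Rik (0.949), and for Myd88 Cyp4f16 (0.955), Lgals1 (0.948) and Aif1 (0.947). Tlr3, Tlr5 and Tlr6 were most like Siae, Tmem159 and Guca1a (0.994, 0.996 and 0.982). Tlr3, Tlr5 and Tlr8 each had a library at 0 counts, and Tlr6 one at 16. Among the members themselves Tlr2 and Tlr4 were the closest pair (0.98), followed by Tlr3 and Tlr8 (0.94). Tlr1 had an r below 0 with each of the other 9, lowest with Tlr4 (-0.95).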

How the data were processed

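RNAseq of sorted GFP+ cells was read from 1 table of 8 libraries. The deposited values are counts of reads per Ensembl gene, whole numbers without normalization. Per the submitters' processing notes the authors used HISAT2 2.0.5 and GRCm38 (mm10). The counting program and the use of strand are not given in the sources used here. The labels give a column kit for RNA and a SMARTER library kit, whereas the methods of the study give Trizol. Genotype, tissue and diet came from the labels. Library totals were 6214269 to 18855772 counts, and counting intervals and the floor of 3 counts cover counting error only.

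Libraries were scaled by TMM over all genes (edgeR 4.0.16 in R 4.3.3). The 16971 genes averaging 10 or more counts were fitted with edgeR's robust quasi-likelihood model with genotype and the tissue and diet pair as terms, with Benjamini-Hochberg adjustment over all of them and a threshold of 0.05. Pairs were set by tissue and diet as labelled. After the genotype means were subtracted, WT and KO libraries of a pair correlated at 0.284 in HFD SAT, 0.0856 in chow SAT, 0.626 in VAT and 0.577 in muscle, and libraries of different pairs at -0.365 to 0.225. Within pairs, log2 ratios used a prior count of 0.5 and exact conditional binomial (Clopper-Pearson) 95% intervals, computed with scipy 1.17.1. The models and intervals were tested on simulated data. Counting intervals held the simulated ratio for 94.8% to 96.3% of genes. With every simulated gene given the common dispersion of these data (0.321), VAT over SAT called 0% of genes changed 2-fold, 4-fold or 8-fold. The fit to the data, which estimates the spread gene by gene, called 849 genes (5%) in that comparison. The simulated 0% therefore does not describe what the fit to the data could call. KO over WT called 1.52% at 2-fold, 29.9% at 4-fold and 74.2% at 8-fold. At a dispersion of 0.1, VAT over SAT called 4.48%, 56.7% and 100%, and KO over WT 11.9%, 97.0% and 100%. Not passing thus does not show that a gene was unchanged. Levels per kb used the gene length in the deposited table. Coding sequences were the longest open reading frame of the GENCODE M21 transcripts, and promoters came from RefSeq.

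All 10 members were described, with the 3 genes most like each by correlation and pathway genes by list. The members, the gene lists and the rules were chosen with earlier results of these data known. Alternatives were DESeq2 1.42.0 and its size factors, library totals, no filter, no replicate block, a prior count of 5 and leaving out each pair or library. Names of transcription factor families and descriptions in the table were not used.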

Additional observations from a re-analysis of the deposited data

Results flagged for a closer look

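For 7 of the 10 members the counting intervals of KO over WT lay above 0 in at least 1 pair and below 0 in at least 1 other, in log2 units. This holds for 57.4% of the 16971 genes, each pair has 1 library a genotype, and the difference between pairs was not tested. Tlr2 was at 0.49 in SAT on HFD and 0.50 in SAT on chow, and at -0.77 in muscle. Tlr3 was at 3.70 against the floor of 3 counts in SAT on HFD (0 counts in WT, interval from 3.37) and 0.53 in muscle, and at -0.96 in SAT on chow and -0.49 in VAT. Tlr5 was at 0.55 in VAT, at -4.93 against the floor in SAT on HFD (0 counts in KO, interval up to -4.58) and at -1.24 in SAT on chow. Tlr6 was at 2.04 in SAT on HFD and -0.85 in SAT on chow. Tlr7 was at 0.55 in SAT on HFD, and at -0.43, -0.19 and -0.77 in the chow pairs of SAT, VAT and muscle. Tlr8 was at 2.68 against the floor in SAT on HFD (0 counts in WT, interval from 2.31), and at -0.97, -0.19 and -0.47 in the same 3 chow pairs. Myd88 was at 0.39 in SAT on HFD, -0.80 in SAT on chow and -0.86 in muscle.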

How the results depend on the processing

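Without the filter on low counts, called genes numbered 42 for KO over WT, 3302 among the settings, 317 for HFD over chow, 2100 for VAT over SAT, 971 for muscle over SAT and 1159 for muscle over VAT. With DESeq2 they numbered 19, 3339, 260, 2305, 1058 and 1258. Members called were then 8 among the settings, 1 (Tlr8) for HFD over chow, 6 for VAT over SAT and 4 for muscle over VAT without the filter, and 7, 0, 6 and 3 with DESeq2, which called 2 for muscle over SAT. Those gained were Tlr5 and Tlr8 for VAT over SAT by both, Tlr4 for muscle over SAT by DESeq2, and Tlr8 and Tlr9 for muscle over VAT by both, with Tlr5 there only without the filter. When 1 library was left out, called genes ran from 529 to 4025 among the settings, 0 to 441 for HFD over chow, 108 to 3510 for VAT over SAT, 39 to 1771 for muscle over SAT and 39 to 1264 for muscle over VAT, and called members from 1 to 7, 0 to 0, 1 to 5, 0 to 2 and 0 to 3. The members below 0 in every chow pair numbered 3, and 5 without the VAT pair, a setting added once the data had been seen. Leaving out 1 pair gave 0 to 2 genes for KO over WT. The fit with no replicate block called 0 genes for KO over WT and turned Tlr2 (-0.24), Tlr3 (-0.22), Tlr5 (0.24) and Tlr8 (-0.23), none of them called in either fit, and changed no other member's sign. Library totals turned Tlr4 (0.064) in that comparison. For HFD over chow, size factors, library totals and DESeq2 turned Tlr1 (0.21, 0.27 and 0.21) and Tlr6 (0.079, 0.14 and 0.078), and library totals turned Tlr4 (0.037). With 1 pair left out, the KO over WT difference of members that changed sign ran from -0.14 to 0.30 for Tlr2, -0.32 to 1.17 for Tlr3, -0.096 to 0.029 for Tlr4, -0.39 to 0.50 for Tlr6 and -0.54 to 0.52 for Tlr8. With 1 library left out, HFD over chow ran from -0.26 to 0.36 for Tlr1, -0.69 to 0.071 for Tlr2, -0.42 to 0.060 for Tlr4, -7.76 to 1.74 for Tlr5, -1.63 to 0.98 for Tlr6, -1.0004 to 0.17 for Tlr7 and -0.83 to 0.25 for Myd88. VAT over SAT ran from -0.00039 to 2.39 for Tlr3, and muscle over SAT from -1.59 to 0.58 for Tlr3, -0.089 to 1.38 for Tlr6 and -0.60 to 0.31 for Myd88. The causes were not tested. Fewer libraries enter these fits, and a lone library is assumed to vary like the rest. Within pairs, library totals moved 7 of 40 values beyond their intervals and a prior count of 5 moved 1.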
